A study of Homo sapiens with 4 samples.

Results

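A set of 10 genes of synapses, the contacts through which neurons signal, is described among the genes that the depositors of this K562 study selected as changed after silencing of the long non-coding RNA HMRHL. The set is a choice, and the same selection holds further synaptic genes. It comprises GABBR2, GRIA4, CACNA1A, NRXN2, NRXN3, CNTNAP2, SYN2, BDNF, EPHA5 and ARC, receptors, a channel, adhesion proteins, a vesicle protein, a secreted growth factor and an activity-induced gene. They were taken by symbol from the authors' deposited table, a list of protein-coding genes called differentially expressed, where all 10 symbols were found, out of 742 distinct symbols in 831 rows. They were chosen with their values known, so those values are described here and support no test.

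K562 is an established human line from chronic myelogenous leukaemia, which the labels call lymphoblast. Cells of the knockdown group received an siRNA against HMRHL and control cells a scrambled siRNA, and total RNA was extracted 36 hours later in both groups. There were 2 libraries of HMRHL knockdown and 2 of scramble control, and separate cultures are not mentioned in the labels. The authors' deposited table holds 1 value per row for the whole comparison. Values per library, expression levels, errors and p-values were not analysed here, so neither the spread between replicates nor the depth behind a value is known. The column carries no scale and no direction. Values are given as log2 of HMRHL knockdown over scramble control, a reading that the table does not state. If the direction were the other way round, every sign would turn, with 3 of the 10 genes higher, 7 lower and, over all symbols, 69.4% higher and 30.6% lower. Read as signed linear ratios, GABBR2 would stand at a 5.14-fold and not a 35.3-fold difference. HMRHL is non-coding and could not appear in a list of protein-coding genes, so the knockdown itself was not checked. PHKB, the gene in whose intron HMRHL lies, is not among the 742 symbols. The identity of the cells could not be checked by level either. None of 14 neuron markers and none of 11 erythroid markers of K562 were listed, whereas of 12 glial markers SLC1A3 stood at 2.57 and MBP at -1.33 in the authors' deposited table. At the 3.70% of annotated protein-coding genes that were listed, 0.5 neuron, 0.4 erythroid and 0.4 glial markers would be. These counts therefore say little about the cells. Some markers of other blood lineages were listed too. The megakaryocyte markers PPBP and GP1BA stood at 3.89 and -1.96, and the myeloid marker CD14 at -1.73. The other megakaryocyte markers examined, ITGA2B, GP9 and PF4, were not listed. Neither were the myeloid markers LYZ, MPO, CSF1R and ITGAM.

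At a chemical synapse an action potential opens voltage-gated calcium channels in the nerve terminal, and the calcium that enters makes synaptic vesicles fuse and release transmitter. Receptors on the opposite membrane answer it: AMPA receptors pass excitatory current when glutamate binds, while GABA-B receptors are G protein-coupled receptors that dampen both release and excitability. Neurexins on the terminal hold the sides together by binding neuroligins and other partners, and BDNF and ARC are made in response to activity and adjust the strength of the contact. These genes are best known from neurons, but several, CACNA1A among them, lie in large loci with many isoforms, and a value per gene does not say which isoform it reflects.

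Promoter sequences are shown for 5 of the 10 genes, because these genes are listed in opposite directions and because NRXN3 and BDNF have several start sites that 1 value per gene cannot separate. The sequences are those of RefSeq on GRCh38.p14, where 8 of the 10 symbols had 17 promoter windows of 250 bases before and 50 bases after a start; NRXN2 and ARC had none. Only bases before the start and outside annotated exons of the same strand are printed, 5′ to 3′, with GC boxes (GGGCGG) and the core of the cyclic AMP response element (TGACG) in capitals, on either strand. NRXN3 is listed as lower, and the others as higher.
CACNA1A, window at chr19:13506504-13506729, minus strand: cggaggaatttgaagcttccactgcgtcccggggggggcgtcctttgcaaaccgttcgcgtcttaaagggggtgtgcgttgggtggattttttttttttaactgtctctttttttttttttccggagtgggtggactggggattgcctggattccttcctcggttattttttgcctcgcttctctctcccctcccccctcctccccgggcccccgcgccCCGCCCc
GRIA4, window at chr11:105609744-105609993, plus strand: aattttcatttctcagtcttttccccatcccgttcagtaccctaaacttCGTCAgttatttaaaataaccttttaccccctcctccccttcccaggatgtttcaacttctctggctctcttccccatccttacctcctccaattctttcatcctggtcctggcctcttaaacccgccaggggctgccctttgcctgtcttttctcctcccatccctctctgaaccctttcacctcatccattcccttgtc
SYN2, window at chr3:12004138-12004387, plus strand: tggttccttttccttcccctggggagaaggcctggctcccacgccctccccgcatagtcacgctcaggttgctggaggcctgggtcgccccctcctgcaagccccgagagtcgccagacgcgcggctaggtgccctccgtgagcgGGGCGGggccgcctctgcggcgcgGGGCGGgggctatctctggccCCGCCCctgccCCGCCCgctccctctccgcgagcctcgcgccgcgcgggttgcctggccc
BDNF, window at chr11:27701634-27701871, minus strand: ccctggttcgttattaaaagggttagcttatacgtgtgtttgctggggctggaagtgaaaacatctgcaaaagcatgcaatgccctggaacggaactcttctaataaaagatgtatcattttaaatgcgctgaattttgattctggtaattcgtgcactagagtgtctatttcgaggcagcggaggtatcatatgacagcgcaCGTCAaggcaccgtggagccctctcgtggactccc
NRXN3, window at chr14:78170123-78170372, plus strand: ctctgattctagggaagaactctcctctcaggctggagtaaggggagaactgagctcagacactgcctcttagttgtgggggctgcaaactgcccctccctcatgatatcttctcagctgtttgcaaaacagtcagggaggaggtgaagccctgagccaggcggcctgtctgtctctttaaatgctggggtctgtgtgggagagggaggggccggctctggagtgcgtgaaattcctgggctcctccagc
NRXN3, window at chr14:79279130-79279338, plus strand: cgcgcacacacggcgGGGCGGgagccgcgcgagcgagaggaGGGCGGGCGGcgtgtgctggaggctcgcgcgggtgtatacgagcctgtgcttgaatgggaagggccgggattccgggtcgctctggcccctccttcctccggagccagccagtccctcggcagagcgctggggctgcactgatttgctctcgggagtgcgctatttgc

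The GC box was searched as GGGCGG on both strands and was present in windows of 7 of the 8 genes, GRIA4 being the exception, and in 10 of 17 windows. Of all 35116 promoter windows, 45.0% hold it. In SYN2 it occurs 4 times in the printed sequence. In the printed NRXN3 window at position 79279130 it occurs 3 times, of which one pair overlaps, and the window at the 5′ end of NRXN3 has none. The core TGACG was in 3 of 17 windows, 1 each of BDNF, GABBR2 and GRIA4, against 24.6% of all windows. The windows of BDNF and GRIA4 that are not printed lack it. The full element TGACGTCA, which contains the core, was in none of the 17 and in 1.85% of all. The BDNF window shown above holds the core as its reverse complement. TATAAA was in none of the 17 windows, against 11.5% of all, and neither was TTCAGCACC, the left arm of the element RE1 that is bound by the repressor REST, against 0.376% of all. These matches describe letters in these windows and show no binding. The median GC content was 60.7% in the 17 windows and 58.7% in all. The highest value, 79.0%, was that of GABBR2, the gene with the most negative value of the 10. The GABBR2 window lies inside an annotated exon and is not printed.

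In the knockdown, 7 of the 10 genes were listed as higher and 3 as lower. Over all 742 symbols in the authors' deposited table, 30.6% were higher and 69.4% lower, but the 10 genes were picked with their directions known and nothing is read from this contrast. The values ran from 3.47 to -5.14 in the authors' deposited table. The 7 higher genes had a median of 1.88, beside 2.05 for all higher symbols. The 3 lower genes had a median of -2.55, beside -1.71 for all lower symbols. At least 4-fold differences, read as log2, were listed for 6 of the 10 genes, against 39.6% of all symbols. These were the higher genes CACNA1A, GRIA4 and EPHA5 and all 3 lower genes; of all symbols, 15.9% were at least 4-fold higher and 23.7% at least 4-fold lower. Nothing is read from these shares either.

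**Figure D1:**
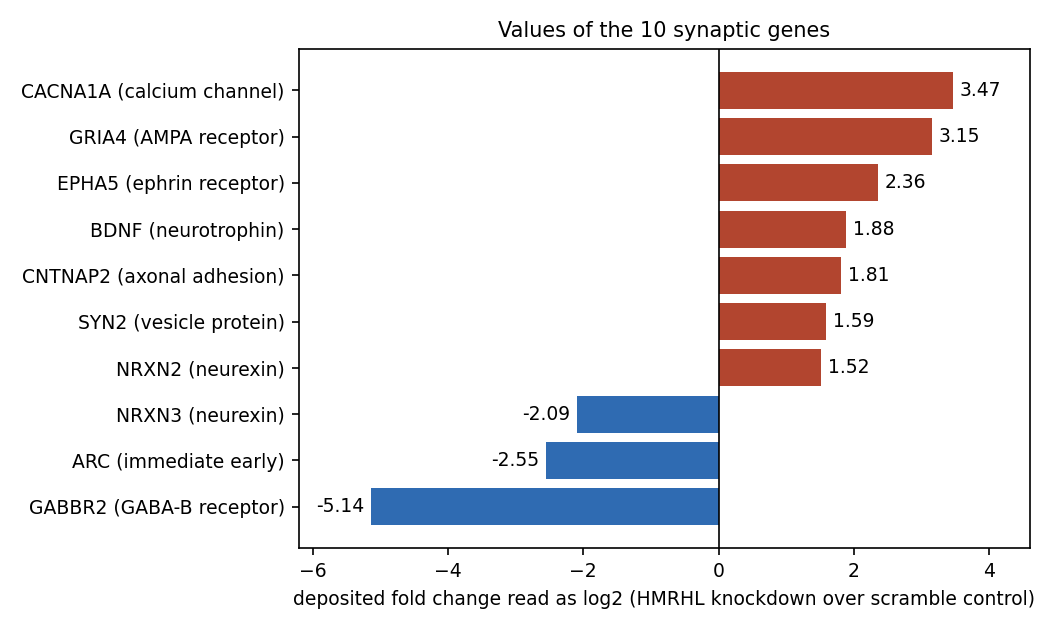
Deposited fold change of each of the 10 genes, read as log2 of HMRHL knockdown over scramble control (x axis), 1 bar per gene with its printed value and no error, since none is given. CACNA1A at 3.47 and GABBR2 at -5.14 are the outermost; 7 bars point to higher and 3 to lower.

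GABBR2 had the most negative value of the set. It encodes the subunit of the GABA-B receptor that couples to G proteins and brings its partner GABBR1, which binds GABA, to the cell surface. It stood at -5.14 in the authors' deposited table, 35.3-fold lower in the knockdown, and ranked 3 of 515 lower symbols, after FRY and GNA15. GABBR1 and the 19 subunits of the GABA-A class were not in the table, so 1 of 21 GABA receptor genes was listed. This is 4.76%, near the 3.70% of annotated protein-coding genes, and GABBR2 was chosen because it was listed. KCTD16 and KCTD12, auxiliary subunits that bind the GABA-B receptor and shape its response, were also lower, at -2.14 and -1.64 in the authors' deposited table. KCTD8, another subunit of this kind, and the potassium channels that the receptor opens were not listed. KCTD16 and KCTD12 were the 2 listed of 19 partner genes of AMPA and GABA-B receptors (10.5%, against 3.70% of annotated protein-coding genes). Lower is the direction of 69.4% of all listed symbols, so nothing is read from their shared direction.

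GRIA4, a subunit of AMPA-type glutamate receptors, stood at 3.15 in the authors' deposited table, 8.89-fold higher in the knockdown and rank 28 of 227 higher symbols. It was the only one of 18 ionotropic glutamate receptor genes in the table, and none of the 8 metabotropic ones appeared. At the 3.70% of annotated protein-coding genes that were listed, 0.7 and 0.3 genes would be. GRIA4 was chosen because it was listed, so nothing is read from these counts. Of the postsynaptic scaffold genes, 2 of 23 were listed (8.7%, against the same 3.70%), in opposite directions. The 23 did not include BEGAIN, listed at -1.47, so the directions depend on which genes were examined. HOMER2, which links metabotropic glutamate receptors to calcium stores, was at -3.14 and DLGAP1, a partner of the scaffold PSD-95, at 2.02 in the authors' deposited table.

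CACNA1A had the most positive value of the set, 3.47 in the authors' deposited table, which is 11.1-fold higher in the knockdown and rank 18 of 227. It encodes the pore of the P/Q-type calcium channel, which triggers transmitter release at many central synapses. Voltage-gated calcium channel genes had the largest listed share of the 12 families examined, 5 of 20 against 3.70% of annotated protein-coding genes, with 3 higher and 2 lower. The auxiliary subunit CACNA2D2 was at 2.33 and the retinal L-type pore CACNA1F at 1.87, while the R-type pore CACNA1E was at -1.18 and the beta subunit CACNB1 at -1.19 in the authors' deposited table. CACNA1E and CACNB1 lay near the entry of the lower side, -1.15, and no higher symbol could be listed that close to 0, since the smallest positive value was 1.5. With 1.5 as the minimum on both sides, 3 of 20 (15%) stayed, all higher, and the largest listed share was that of the neurexins and their ligands, 3 of 17 (17.6%). At that minimum 227 higher and 339 lower of all 742 symbols stayed. These family shares count genes of the set, which were chosen because they were listed: CACNA1A among the channels, and NRXN2 and NRXN3 among the neurexins. The order of the families follows in part from that choice, and nothing is read from it.

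The neurexins were listed in opposite directions. NRXN3 stood at -2.09 (4.25-fold lower in the knockdown) and NRXN2 at 1.52 (2.86-fold higher) in the authors' deposited table. NRXN2 ranked 224 of 227 higher symbols, so it is the member nearest to the authors' entry. NLGN4X, a neuroligin that binds neurexins across the cleft, had a larger value than either, 3.19 in the authors' deposited table. These 3 were the listed ones of the 17 neurexin and ligand genes examined (17.6%, against 3.70% of annotated protein-coding genes). Both neurexins were chosen because they were listed. The 17 did not include the neurexophilin NXPH4, listed at -1.43, or MDGA1, listed at -1.84. The share and directions therefore depend on which genes were examined. Each neurexin gene makes a long alpha and a shorter beta form from separate promoters; GENCODE release 29 gives NRXN3 10 coding transcripts with 10 starts and NRXN2 9 with 8 starts, and the deposited value does not say which of them differ.

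CNTNAP2, a neurexin-related protein that clusters potassium channels along myelinated axons, was at 1.81 in the authors' deposited table, 3.51-fold higher in the knockdown. It filled 2 rows with an identical value. Its partner on axons, the contactin CNTN2, was lower, at -1.85 in the authors' deposited table, so the pair was listed in opposite directions; these were 2 of 12 contactin and CNTNAP genes.

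SYN2, a synapsin that tethers vesicles in reserve, was at 1.59 in the authors' deposited table, 3.0-fold higher in the knockdown and rank 209 of 227. Of the other vesicle and release genes examined, 3 were listed, all lower, which is the direction of 69.4% of all listed symbols. They were PCLO, a scaffold of the release zone, at -2.32, the complexin CPLX2 at -1.76 and the vesicular glutamate transporter SLC17A7 at -1.15 in the authors' deposited table. SLC17A7 was the symbol nearest to 0 on the lower side. In all, 4 of the 47 genes examined were listed (8.51%, against 3.70% of annotated protein-coding genes), and 3, SYN2 among them, with 1.5 as the minimum on both sides. Both counts include SYN2, which was chosen because it was listed.

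**Figure D2:**
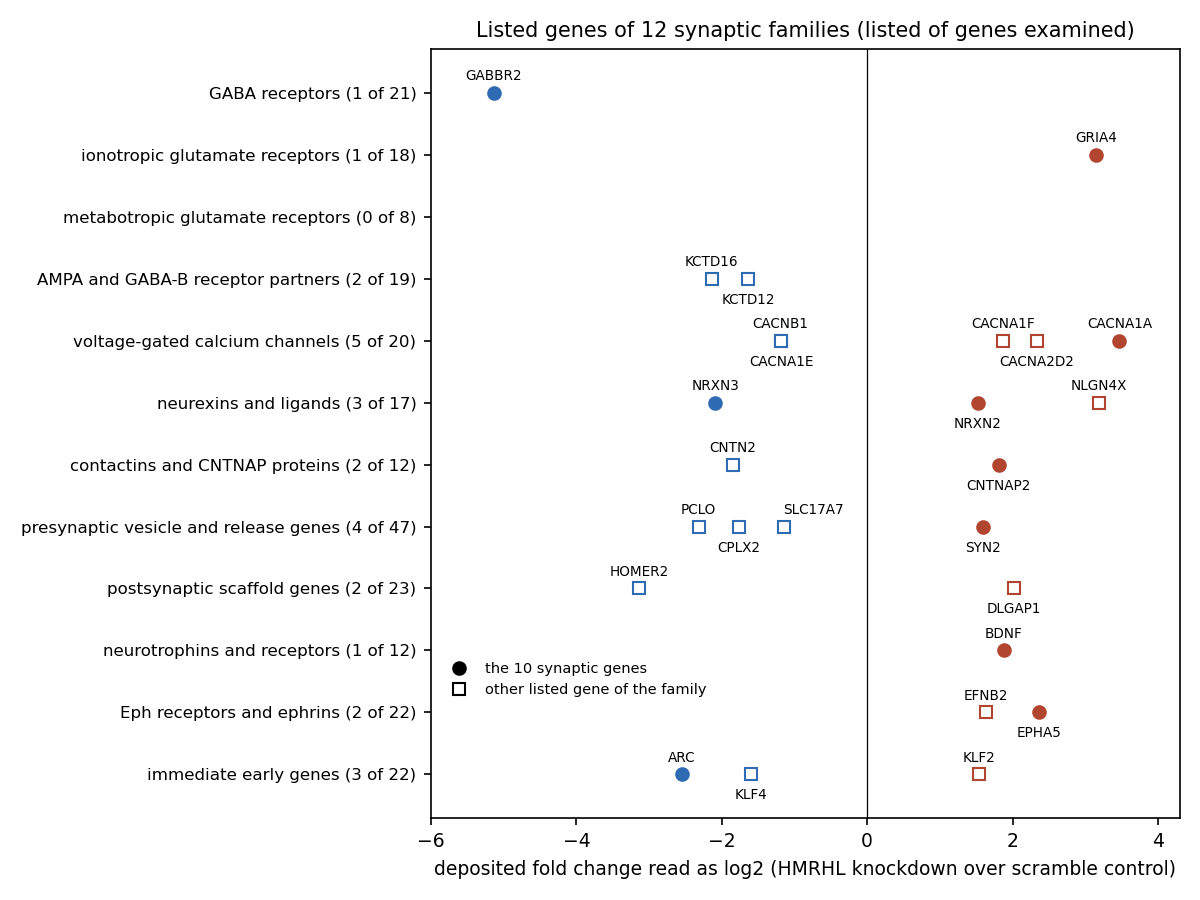
Listed genes of 12 synaptic families, 1 row per family, with the deposited fold change read as log2 of HMRHL knockdown over scramble control (x axis); filled circles are the 10 genes, open squares other listed genes, and the row label gives listed genes of those examined. SYN2 at 1.59 stands alone to the right of its 3 lower family members, and NRXN2 and NRXN3 lie on opposite sides of 0.

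BDNF, a secreted neurotrophin that acts through the receptor NTRK2, was at 1.88 in the authors' deposited table, 3.69-fold higher in the knockdown and rank 133 of 227. None of the other 11 neurotrophin and receptor genes was listed. At the 3.70% of annotated protein-coding genes that were listed, 0.4 genes of the whole family would be. EPHA5, a receptor tyrosine kinase for ephrin-A ligands that guides axons, was at 2.36 in the authors' deposited table, 5.14-fold higher and rank 72. The other listed gene among 22 Eph receptors and ephrins, EFNB2, an ephrin of the B class, was at 1.63 in the authors' deposited table. ARC, an immediate early gene whose protein removes AMPA receptors from synapses, was at -2.55 in the authors' deposited table, 5.87-fold lower in the knockdown and 84th of 515 lower symbols. Of 22 immediate early genes, KLF4 at -1.60 and KLF2 at 1.54 were the others in the authors' deposited table, and FOS, EGR1 and NPAS4 were not listed. The listed shares were 9.09% of Eph receptors and ephrins and 13.6% of immediate early genes, against the same 3.70%. The counts include BDNF, EPHA5 and ARC, which were chosen because they were listed, and nothing is read from them.

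**Figure D3:**
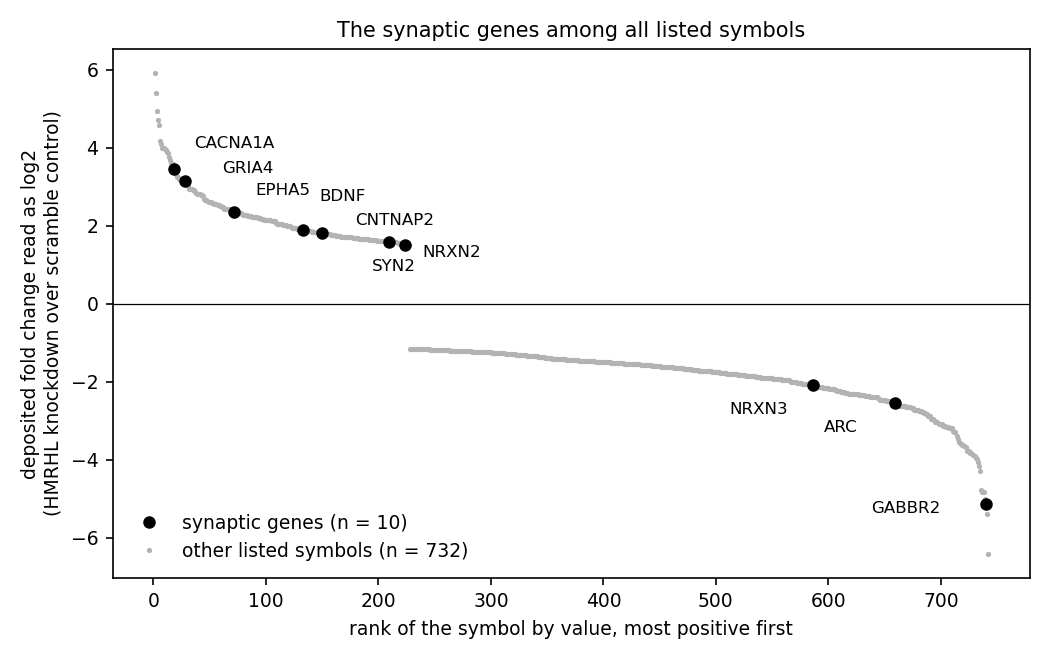
All 742 listed symbols ranked by deposited fold change read as log2 of HMRHL knockdown over scramble control (y axis), most positive first (x axis), with the 10 synaptic genes in black and the 732 others in grey. The synaptic genes spread from rank 18 (CACNA1A) to rank 740 (GABBR2), and no symbol lies between 1.5 and -1.15.

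Over the 12 families together, for which 241 genes were examined, 26 were listed, 13 higher and 13 lower. With the 10 genes, which were selected from the table, set aside, 16 of 231 remained, or 6.93%, against 3.70% of all annotated protein-coding genes. The families were chosen around listed genes, and this difference was not tested. Related genes outside the families, such as NXPH4, MDGA1 and BEGAIN, were listed as lower and are not counted. Of the 16, 6 were higher and 10 lower in the knockdown, and 37.5% higher is near the 30.6% of all listed symbols. Their median was -1.18, beside -1.44 for all listed symbols in the authors' deposited table. A gene that is absent was not selected by the authors, and whether it differed between the groups is unknown. In RNA from bulk cells fewer expressing cells and less RNA per cell cannot be told apart.

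Most of the 10 genes have a long genomic span. Of the 10, 8 exceed 100 kb, against 25% of the 739 listed symbols that could be placed and 18% of annotated protein-coding genes. Their median span was 362 kb, against 30.0 kb for the listed symbols. Long genes are typical of the neuronal adhesion and channel families from which they were chosen, and no test was made. Among all listed symbols, 35.0% of the higher and 20.7% of the lower ones exceeded 100 kb. CNTNAP2, on chromosome 7 from 146116002 to 148420998, is the longest of all listed genes at 2305.0 kb, and NRXN3, on chromosome 14 from 78170373 to 79868290, ranks 4 at 1697.9 kb. CACNA1A spans chromosome 19 from 13206442 to 13633025, GABBR2 chromosome 9 from 98288082 to 98709197, GRIA4 chromosome 11 from 105609994 to 105982092 and EPHA5 chromosome 4 from 65319563 to 65670495. SYN2 lies on chromosome 3 from 12004402 to 12191400 and NRXN2 on chromosome 11 from 64606174 to 64723188. Only BDNF, on chromosome 11 from 27654893 to 27722058, and ARC, 3.4 kb long on chromosome 8, are shorter than 100 kb.

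**Figure D4:**
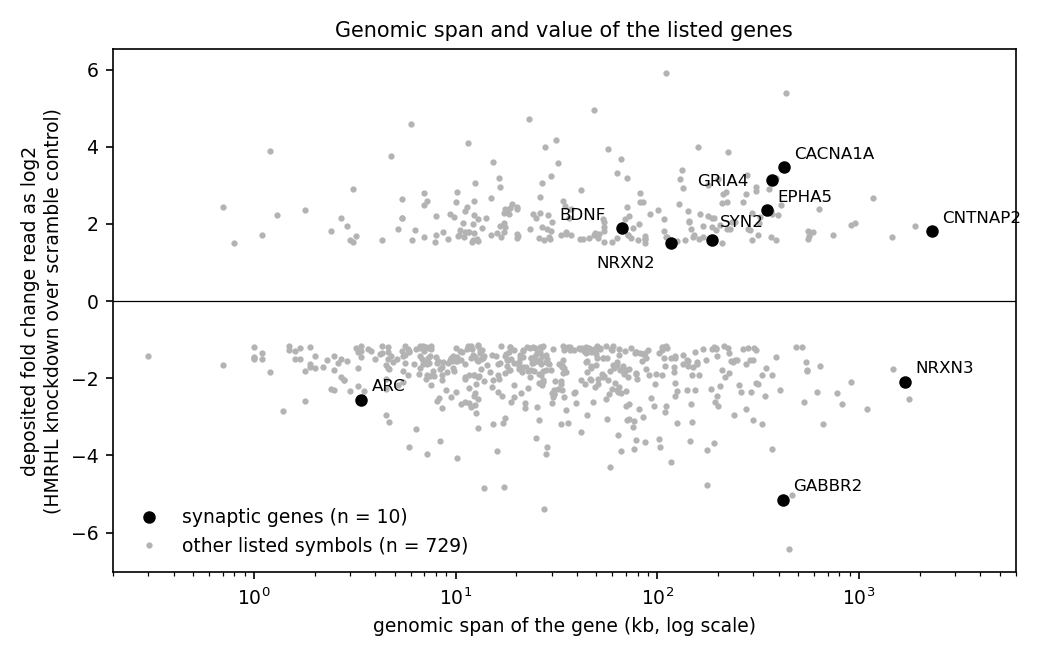
Genomic span of each placed gene in kb (x axis, log scale) against its deposited fold change read as log2 of HMRHL knockdown over scramble control (y axis), with the 10 synaptic genes in black and the 729 others in grey. Except for BDNF and ARC, the synaptic genes lie beyond 100 kb, on both sides of 0.

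Exons of 4 of the 10 genes overlap exons on the opposite strand, against 37.3% of listed symbols. These are EPHA5 with EPHA5-AS1, BDNF with BDNF-AS, SYN2 with TIMP4 and GABBR2 with the pseudogene SEPT7P7. CNTNAP2 overlaps the pseudogene DUTP3 on its own strand. The libraries were made with a stranded kit, and no source used here states whether strand was used in counting. The values of the 4 genes with an overlap on the opposite strand are uncertain to that extent. For CNTNAP2 the overlap is on the same strand, so strand could not separate it from DUTP3. No gene elsewhere matched any of the 10 at 95% identity over 50% of its longest transcript. The widest matches were NRXN3 for NRXN2, over 56.0% at 70.7% identity, and CACNA1B for CACNA1A, over 55.2% at 75%.

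Around some of the 10 loci other genes were listed in the opposite direction. Within 1000 kb of NRXN2 there were 4 listed genes, all lower: SLC22A11, an organic anion transporter, at -3.17, PYGM, muscle glycogen phosphorylase 23.2 kb away, at -2.07, NAALADL1 at -1.48 and CDC42EP2 at -1.15 in the authors' deposited table. Near CACNA1A, PALM3 at -1.92, ZSWIM4 at -1.25 and MAST1 at -1.22 were likewise lower in the authors' deposited table. C7orf33, 169.6 kb from CNTNAP2, was at -1.54 there. Lower is the direction of 69.4% of all listed symbols. ARC and its listed neighbour MAFA, 804.7 kb away, were both lower, MAFA at -2.63 in the authors' deposited table. BDNF had a neighbour on each side of 0, BBOX1 at 1.5 and the transporter SLC5A12 at -3.04 in the authors' deposited table. GABBR2, GRIA4, EPHA5, SYN2 and NRXN3 had no listed neighbour within this distance.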

How the data were processed

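RNA of 2 HMRHL knockdown and 2 scramble control libraries of K562 cells was sequenced. The submitters' processing notes name Cuffdiff, Cufflinks, TopHat, Bowtie2, SAMtools 1.3.1 and Trim Galore 0.4.4, and the builds GRCh38 and hg38; order, settings and the threshold for listing a gene are not given in the sources used here. The fold changes that the authors deposited carry no unit and were read as log2, the scale on which Cuffdiff prints fold changes. The values have both signs and at most 6 significant digits, which does not separate log2 from a signed linear ratio. Repeated rows held identical values, so each symbol was counted once. Genes were placed with GENCODE release 29 (GRCh38), to which 739 of 742 symbols matched as protein-coding. Copies were sought with BLAST 2.17.0. The depth per library is unknown, and no test was made.

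The members and gene lists were chosen with earlier results of these data known. Named are the 10 genes, the listed genes of 12 families (some genes of these families are not reported here) and listed neighbours; neighbours, the genes named as unlisted and the motifs were added after the values were seen. Alternatives were an equal minimum in both directions, a 4-fold minimum, counting every row, leaving out genes with overlapping exons and translating older symbols. Python 3.11.15, pandas 2.3.3, numpy 2.4.6 and matplotlib 3.10.9 were used.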

Additional observations from a re-analysis of the deposited data

How the results depend on the processing

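With the same minimum of 1.5 on both sides the 10 genes stayed at 7 higher and 3 lower with a median absolute value of 2.22, and the genes of the 12 families at 13 higher, while the lower ones numbered 10 in place of 13. Translating 20 of the 742 symbols from older names through RefSeq left both family counts at 13. At a minimum of 4-fold, 3 of the 10 genes were higher and 3 lower. Counted by row, 8 rows were higher and 3 lower. Without the 5 genes whose exons overlap those of another gene, 3 were higher and 2 lower, with a median absolute value of 2.55. No paired analysis was possible because the deposited table holds no values per library; for the same reason leaving out replicates, filters on low values, pseudocounts and other normalizations were not run.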

Other observations

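Other gene families of nerve cells, chosen by symbol after the values were seen, also had listed members. Of 49 semaphorins, plexins, neuropilins, netrins, Slits and their receptors, which steer growing axons, 4 were listed and all were higher in the knockdown: SEMA6C at 2.67, ROBO1, the receptor for Slits, at 2.66, PLXNA2 at 2.56 and the netrin receptor UNC5C at 1.59 in the authors' deposited table. This is 8.2% of the family, against 3.70% of annotated protein-coding genes, and 30.6% of all listed symbols were higher. No test was made on this choice.

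Of 96 potassium channel genes, 9 were listed (9.4%, against 3.70% of annotated protein-coding genes), 2 higher and 7 lower in the knockdown, near the 69.4% lower of all listed symbols. The inward rectifier KCNJ2 stood at 2.44 and KCNK12 at 1.53, and at the low end KCNE4 stood at -2.66 and the sodium-activated channel KCNT1 at -2.50, all in the authors' deposited table. Of 21 acetylcholine receptor genes, the nicotinic subunit CHRNB2 was at 2.0, the muscarinic receptor CHRM4 at -1.27 and the nicotinic subunit CHRNG at -1.74 in the authors' deposited table. Of 27 serotonin, dopamine and glycine receptor genes, HTR2B alone was listed, at -1.17 in the authors' deposited table. Of 89 cadherins and protocadherins matched by symbol, 3 were listed (3.4%), 2 higher and 1 lower, among them PCDH12 at 2.29 and CDH12 at -2.79 in the authors' deposited table. The match left out related genes of other names. Of these, CDHR5 at -2.49, DSC1 at -1.67, DCHS1 at -1.28, DSG1 at -1.27 and FAT2 at -1.24 were listed, all lower. The share and directions of the family therefore depend on the match.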
